A study of Mus musculus with 2 samples.

Results

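The MHC class I pathway of mouse bone marrow cells was followed through 10 genes, taken by symbol from the feature list of the deposited count matrices: B2m, H2-K1, H2-D1, H2-T22, Tap1, Tap2, Tapbp, Psmb8, Psmb9 and Psmb10. All 10 were present among the 31053 features, each as 1 entry. The data came from 1 droplet 3′ single-cell RNA library per genotype. The null-labelled library was the one given as Apoe(-/-), Itgb3(-/-), and the control-labelled library Apoe(-/-), Itgb3(+/+). Both were bone marrow of C57BL/6 mice aged 6 months with the disease label atherosclerosis, so every cell, controls included, lacked Apoe by its label. Itgb3 encodes integrin beta 3, and Apoe encodes apolipoprotein E. The sources used here do not give how many animals each library held or whether they were pooled. With 1 library per genotype there is no replicate check: no p-value was computed, every interval below is a 95% interval that covers counting error only, and a difference between the libraries cannot be told apart from a difference between their animals or preparations.

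MHC class I molecules show peptides from inside the cell to CD8 T cells. A heavy chain pairs with the light chain beta-2 microglobulin, and the peptide is cut by the proteasome, carried into the endoplasmic reticulum by the TAP transporter and loaded with the help of tapasin. Interferons raise the transcription of these genes and of the immunoproteasome subunits, which take the place of the constitutive catalytic subunits. H2-K1 and H2-D1 encode classical heavy chains, and H2-T22 a non-classical one that some gamma delta T cells recognise. B2m encodes the light chain. Tap1 and Tap2 encode the paired subunits of the transporter, and Tapbp encodes tapasin. Psmb8, Psmb9 and Psmb10 encode the immunoproteasome counterparts of Psmb5, Psmb6 and Psmb7.

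On GRCm38 with GENCODE vM21, 8 of the 10 genes lay on chromosome 17. They were Tapbp at chr17:33915899-33929292 (+), H2-K1 at chr17:33996017-34000347 (-), Psmb9 at chr17:34181987-34187764 (-), Tap1 at chr17:34187553-34197225 (+), Psmb8 at chr17:34197721-34201454 (+), Tap2 at chr17:34203527-34216321 (+), H2-D1 at chr17:35262730-35267499 (+) and H2-T22 at chr17:36037128-36042747 (-). The annotated ends of Psmb9 and Tap1 overlapped, on opposite strands. B2m lay at chr2:122147686-122153083 (+) and Psmb10 at chr8:105935735-105938444 (-).

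Upstream sequence is shown for the light chain and the heavy chains, since an interferon response core was found in each of their windows. The stretches come from RefSeq (GRCm38.p6), from the 250 bases before the RefSeq start, and those of B2m, H2-K1 and H2-T22 lie outside untranslated regions annotated in GENCODE. Capitals mark matches, on either strand, to GGGNNTTCC (kappaB-like), GAAANNGAA or GAANNGAAA (interferon response cores) and TGACG (CRE-like). B2m is chr2:122147437-122147685 (+), H2-K1 is chr17:34000348-34000597 (-) and H2-T22 is chr17:36042748-36042960 (-), each written 5′ to 3′ on the strand of the gene.
B2m: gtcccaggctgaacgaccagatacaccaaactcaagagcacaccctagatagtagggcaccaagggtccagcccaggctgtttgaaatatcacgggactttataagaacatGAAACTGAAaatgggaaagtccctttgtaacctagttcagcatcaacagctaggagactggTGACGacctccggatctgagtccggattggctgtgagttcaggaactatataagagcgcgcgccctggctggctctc
H2-K1: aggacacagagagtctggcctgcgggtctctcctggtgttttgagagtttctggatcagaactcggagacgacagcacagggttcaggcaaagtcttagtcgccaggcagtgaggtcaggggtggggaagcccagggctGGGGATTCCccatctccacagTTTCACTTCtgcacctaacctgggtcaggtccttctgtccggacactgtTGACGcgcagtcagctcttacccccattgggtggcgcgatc
H2-T22: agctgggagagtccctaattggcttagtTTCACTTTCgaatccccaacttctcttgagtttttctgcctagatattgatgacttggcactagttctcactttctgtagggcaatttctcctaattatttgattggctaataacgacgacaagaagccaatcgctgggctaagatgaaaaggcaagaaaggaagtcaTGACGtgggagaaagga

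The stretch from the kappaB-like match to the interferon core was nearly the same in H2-K1 (chr17:34000429-34000458) and H2-D1 (chr17:35262923-35262952), and is set side by side because both classical heavy chains hold both motifs in this order. For H2-D1 the whole RefSeq window lies within untranslated regions annotated in GENCODE, whose earliest H2-D1 start is further upstream. It was 30 bases long with 29 identical, and the difference, counted from the 5′ end of the stretch with the H2-K1 base first, was A18T.
H2-K1: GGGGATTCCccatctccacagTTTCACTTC
H2-D1: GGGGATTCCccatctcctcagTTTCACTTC

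RefSeq windows were held for 9 of the 10 genes, Tap2 being the exception. An interferon response core of either form occurred in 4 of these 9 genes (B2m, H2-K1, H2-D1 and H2-T22), against 12.5% of all 32851 windows. The 2 forms overlap in part; alone, GAAANNGAA was in 7.13% and GAANNGAAA in 6.31% of windows. The CRE-like letters were in 6 of the 9 genes (those 4, Tap1 and Psmb9, which share the stretch between them) and in 17.8% of all windows. The kappaB-like letters were in H2-K1 and H2-D1 and in 4.98% of windows. TTCNNNGAA, the letters of a gamma activated site, were in Psmb8 and in 7.02% of windows. These matches describe letters in a window and were not tested as sites.

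After filtering, 2903 cells of the null-labelled library (33499181 UMIs, median 9311 per cell) and 8595 cells of the control-labelled library (59016542 UMIs, median 4808) were kept. Cells were grouped into classes by marker genes and named "-like". The libraries stood apart: of 128 sub-clusters, 125 consisted to at least 90% of cells of a single library, so nearly every class below compares different sub-clusters, and the part of preparation in this was not tested. The matrices shared 11 barcodes, 6 of them among kept cells. Itgb3 was counted at 249 UMIs (7.43 counts per 1000000 UMIs, CPM; interval 6.54 to 8.42) in the null-labelled library and 1391 UMIs (23.6 CPM, 22.3 to 24.8) in the control-labelled library. In megakaryocyte-like cells (10 null-labelled, 25 control-labelled) Itgb3 was at 106 CPM (8 UMIs; 46 to 209.8) and 3552 CPM (861 UMIs; 3319 to 3798). In monocyte-like cells it was at 0.67 CPM (2 UMIs) and 10.8 CPM (63 UMIs). Over all cells Apoe was counted at 62.5 CPM and 99.5 CPM. The sources used here do not say which exons were deleted, and a 3′ UMI from outside a deleted part checks nothing. Median depth per cell was greater in null-labelled cells in each class compared. In what follows a gene is called higher or lower when its CPM, from UMIs summed over the cells of a class, differed 2-fold or more, with at least 50 CPM in 1 library and 30 UMIs over both.

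Over all kept cells, each of the 10 genes passed this call as higher in null-labelled cells. They made up 0.75% of UMIs there, against 0.21% in the control-labelled library. Their summed level was 7504 CPM and 2097 CPM, a ratio of 3.58 (3.55 to 3.6). The share of all genes called higher was 7.81%, and the median log2 ratio was 1.78 over the 10 genes and -0.25 over all 2714 genes past the minimum. Scaling by TMM factors shifted every log2 ratio over all cells by 0.19.

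Among the chains of the molecule itself, B2m stood at 1985 CPM in null-labelled cells and 546 CPM in control-labelled cells (3.64-fold, 3.59 to 3.69). H2-D1 was at 2081 CPM and 638 CPM (3.26-fold, 3.22 to 3.3), and H2-K1 at 1049 CPM and 386 CPM (2.72-fold, 2.67 to 2.77). H2-T22 was at 319 CPM and 28.2 CPM, the largest ratio of the 10 at 11.3 (10.7 to 11.9). The non-classical chain thus stood further apart between the libraries than the light chain and the classical chains. Of all stretches of 50 bases in the last 500 bases of its transcripts, 58.9% also occurred in H2-T10, which is not among the features, so H2-T22 UMIs may include reads of that gene. For H2-K1 the shared part was 9.6% (24 genes) and for H2-D1 8.92% (81 genes). The genes sharing most with H2-D1 were led by H2-K1 but also held Adsl and Kcnk4, which are not heavy chains. To that extent the assignment of H2-K1 and H2-D1 UMIs is uncertain, between heavy chains and, for H2-D1, also other genes.

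The paired transporter genes did not differ by the same amount. Tap1 stood at 382 CPM in null-labelled cells and 40.5 CPM in control-labelled cells (9.43-fold, 9.02 to 9.85), and Tap2 at 84.5 CPM and 33.4 CPM (2.53-fold, 2.38 to 2.68). Tapbp was at 602 CPM and 74 CPM (8.14-fold, 7.88 to 8.41). Of its last 500 bases, 4.83% of the 50-base stretches were shared with the neighbouring gene Zbtb22, and for Tap1 2.75% with Tap2. Of the immunoproteasome genes, Psmb10 was at 316 CPM and 73.6 CPM (4.3-fold, 4.15 to 4.46), Psmb8 at 478 CPM and 189.9 CPM (2.52-fold, 2.46 to 2.58), and Psmb9 at 208 CPM and 88.3 CPM (2.36-fold, 2.28 to 2.45), the smallest of the 10.

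**Figure D1:**
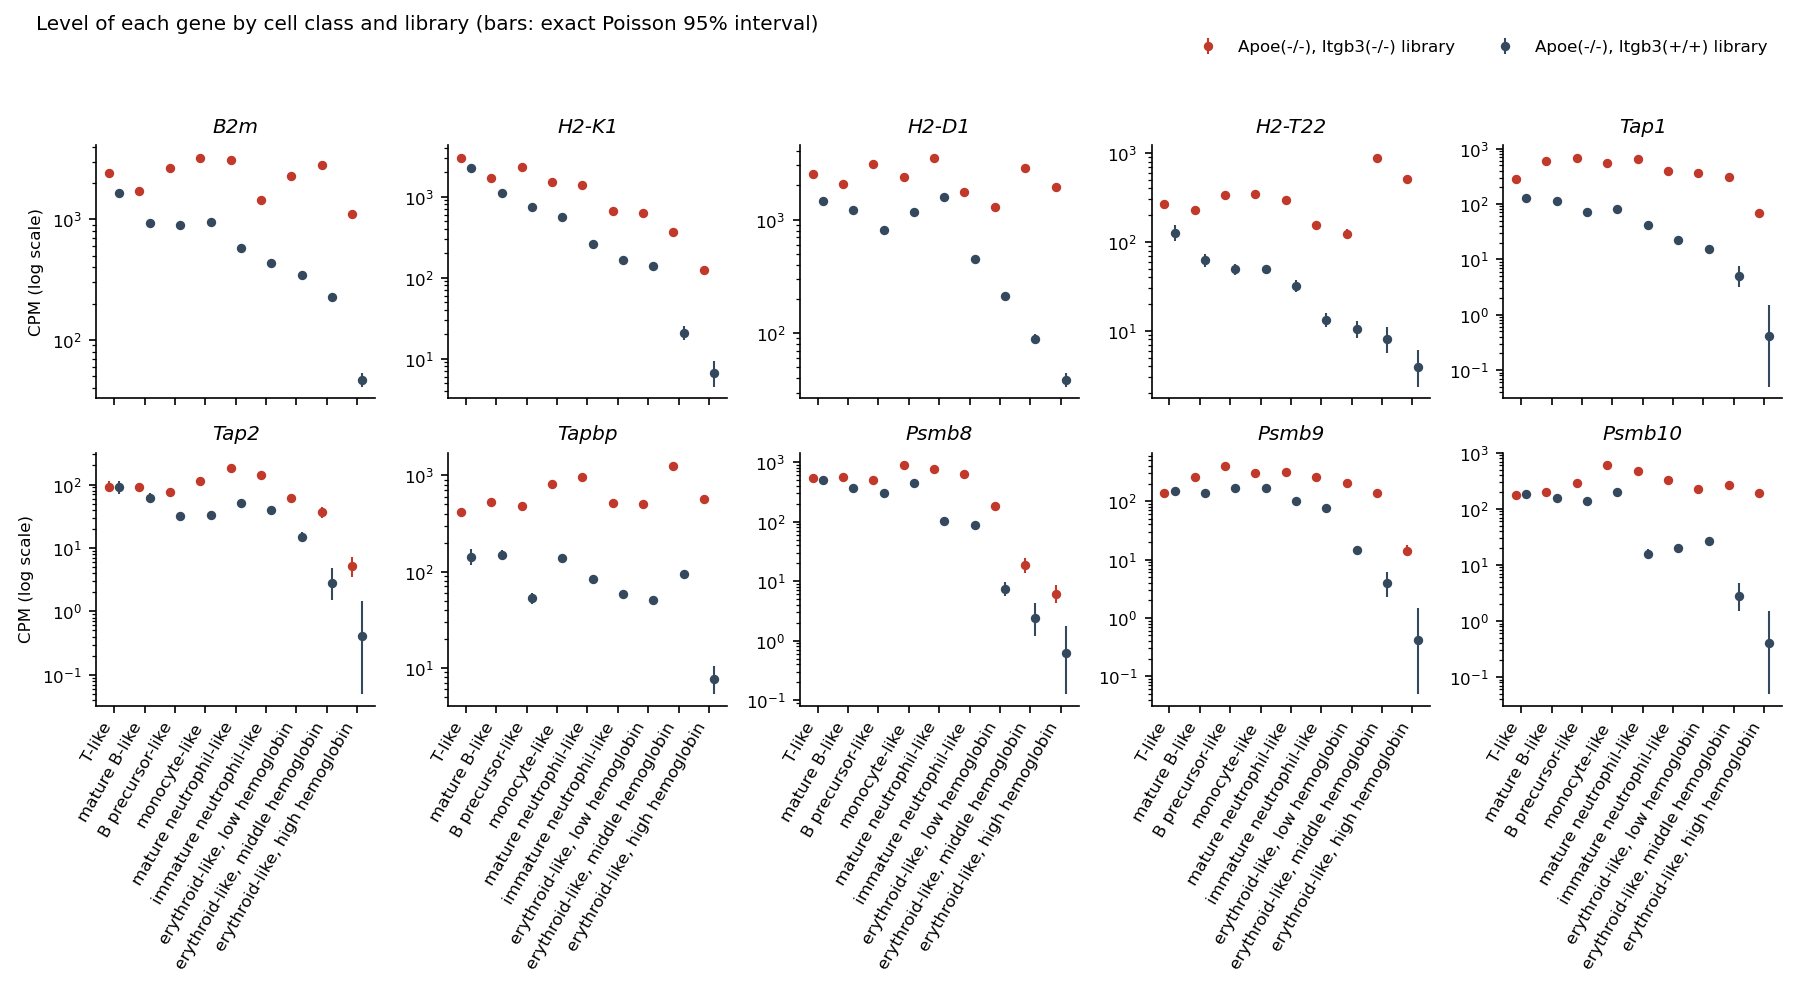
CPM (log scale) of each of the 10 genes in 6 cell classes and 3 erythroid stages (x axis), with the null-labelled library in red at the left of each pair and the control-labelled library in dark at the right; bars are exact Poisson 95% intervals. The pairs stand close in T-like cells and far apart in the erythroid stages, where H2-T22 is at 866 CPM and 8.01 CPM in the middle stage.

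The ratios depended on the cell class. Comparisons were made in the 7 classes with at least 100 cells in both libraries and in 3 erythroid stages. No gene of the 10 was called lower in any of them.

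Erythroid-like cells (969 null-labelled, 2022 control-labelled; all 12 erythroid markers were detected in both) had the largest ratio of the 10 genes together among the classes compared. Single genes differed: mature neutrophil-like cells had larger ratios of H2-K1, Tap2 and Psmb10, immature neutrophil-like cells of H2-K1 and Tap2, and monocyte-like cells of Tap2. Not all of these lay beyond counting error. For H2-K1 the log2 ratio was 2.04 in immature neutrophil-like and 2.03 in erythroid-like cells. Erythroid-like Tap2 rested on 269 and 134 UMIs, and its counting interval covered the Tap2 ratios of these other classes. These orders are those of pooled erythroid-like cells, whose mix of stages differed between the libraries. The pooled log2 ratios of Tap2 (1.70) and H2-K1 (2.03) were below those in the low, middle and high stage described below. By stage they were 2.04, 3.70 and 3.64 for Tap2 and 2.16, 4.12 and 4.24 for H2-K1. In each stage Tap2 was above its log2 ratio in mature neutrophil-like (1.85), immature neutrophil-like (1.82) and monocyte-like (1.79) cells. For the low stage, with 140 and 119 UMIs, this order lay within counting error. With a mitochondrial limit of 5% the low-stage Tap2 log2 ratio was 1.68. The 10 genes summed to 5912 CPM in null-labelled cells and 534 CPM in control-labelled cells, an 11.1-fold ratio (10.8 to 11.3). All 10 log2 ratios were above 0, from 1.70 (Tap2) to 6.02 (H2-T22). Of the 10, 8 passed the minimum and all 8 were called higher, against 7.22% of all genes; Tap2 and Psmb8 missed the minimum at 24.7 and 46.7 CPM in the null-labelled library. The median over all 10 was 3.66, and over all genes past the minimum -0.93, with a TMM shift of 0.87. H2-T22 was at 519 CPM and 8.03 CPM, a ratio of 64.7 (54.7 to 77). H2-D1 was at 2024 CPM and 131 CPM (15.4-fold), B2m at 1787 CPM and 232 CPM (7.7-fold), and H2-K1 at 290 CPM and 71.2 CPM (4.07-fold). The ratios of the classical heavy chains therefore differed from each other in these pooled cells, with intervals of 14.8 to 16.1 for H2-D1 and 3.81 to 4.35 for H2-K1. Within each stage they stood closer. In the low, middle and high stage the log2 ratio of H2-D1 was 2.62, 4.99 and 5.63, beside 2.16, 4.12 and 4.24 for H2-K1. Tap1 was 22.2-fold, Tapbp 14.4-fold, Psmb10 16.8-fold, Psmb9 11-fold and Psmb8 11.1-fold above the control-labelled library.

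Markers of other cell types were sparse in these cells. The summed level of granulocyte-monocyte progenitor markers was 0.18% of its whole-library level in null-labelled erythroid-like cells and 0.366% in control-labelled ones. T cell markers were at 0.5% and 0.66%, with Cd3e at 0 in both, and immature neutrophil markers at 0.215% and 0.642%. Markers shared with early progenitors were higher: HSPC markers (hematopoietic stem and progenitor cells) stood at 52.1% and 41.5%, and megakaryocyte markers at 21.2% and 24.6%. Subtracting a free RNA profile scaled to the lowest share among the abundant marker lists left 8 genes called higher, as before.

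The erythroid-like cells were split by the share of a cell's UMIs that came from hemoglobin genes, which climbs as red cell precursors mature. The stages are ranges of 1 measure, not cell types. Under 20% hemoglobin (104 null-labelled and 444 control-labelled cells), the 10 genes summed to 5859 CPM and 838 CPM, a ratio of 6.99 (6.79 to 7.2). From 20 to 60% (264 and 670 cells) they summed to 8922 CPM and 455 CPM (19.6-fold, 18.8 to 20.5), and above 60% (601 and 908 cells) to 4535 CPM and 106 CPM (42.7-fold, 39.2 to 46.7). The ratio thus grew with the hemoglobin share, while the level fell in each step in the control-labelled library and peaked in the middle stage in the null-labelled library.

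In the low stage all 10 genes were called higher, against 8.86% of all genes, with a median log2 ratio of 3.21 beside -0.19 for all genes. In the middle stage 8 of the 10 passed the minimum and all 8 were called, against 13.6%; the median over all 10 was 4.55, beside -0.24 for all genes and a TMM shift of 0.46. In the high stage 7 passed and were called, against 24.1%; the median over all 10 was 5.37, beside -0.42 for all genes and a TMM shift of 0.59.

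Hemoglobin itself takes up most UMIs of the late cells, so levels were also set against non-hemoglobin UMIs. On that scale the 10 genes stood at 6152, 15565 and 25817 per 1000000 non-hemoglobin UMIs in the low, middle and high stage of the null-labelled library. In the control-labelled library they stood at 884, 754 and 533. Per cell, the null-labelled library held 130.4, 91.8 and 44.1 UMIs of the 10 genes in the 3 stages, against 15.2, 3.13 and 0.569 in the control-labelled library. In bins of 10% hemoglobin, the null-labelled level on this scale was 5901 (5789 to 6015) in the lowest bin, 30118 (29580 to 30664) at 70 to 80% and 12653 (12111 to 13214) above 90%. The control-labelled level was 916 (892 to 940.1) in the lowest bin, 431 (356 to 518) at 80 to 90% and 540.4 (365 to 771) above 90%. Both libraries thus had fewer UMIs of these genes per cell in late than in early cells, but their share of the non-hemoglobin RNA went up over most of the range in the null-labelled library and down in the control-labelled library. Fewer transcripts of these genes and more of the others cannot be told apart from shares of UMIs.

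**Figure D2:**
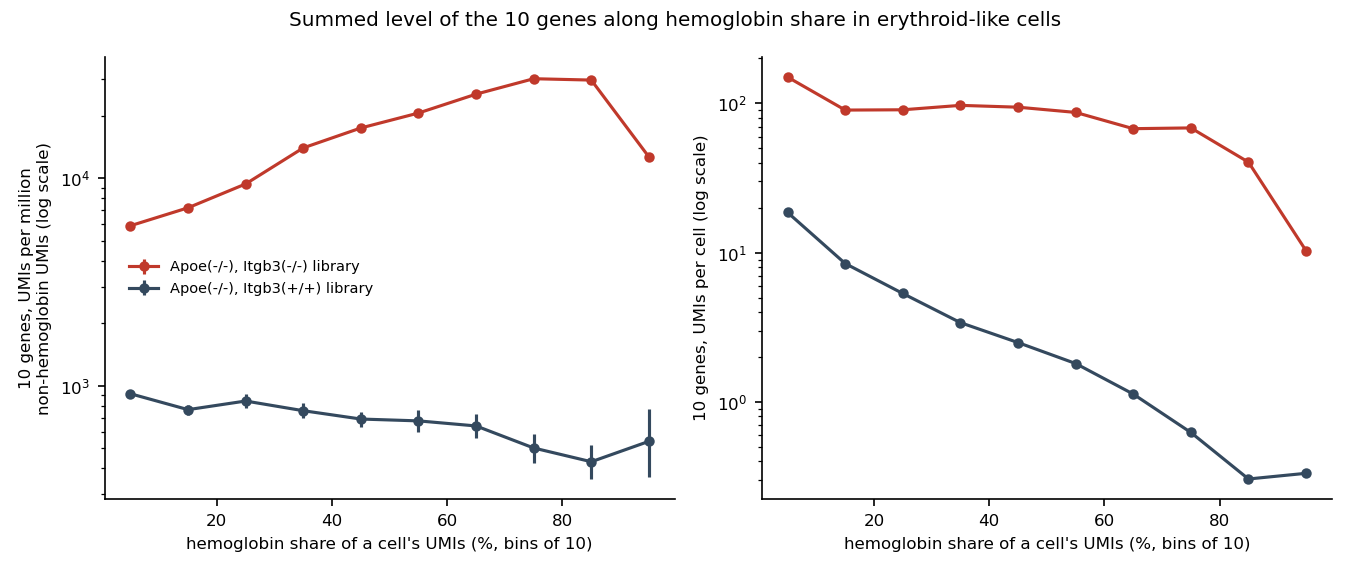
Summed UMIs of the 10 genes in erythroid-like cells in bins of hemoglobin share (x axis, % of a cell's UMIs): per 1000000 non-hemoglobin UMIs (left) and per cell (right), both on log scales, null-labelled library in red and control-labelled library in dark; bars in the left panel are exact Poisson 95% intervals. In the left panel the libraries stand at 5901 and 916 in the lowest bin and at 30118 and 502 at 70 to 80%.

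The genes went different ways along the stages, and the course of a gene depends on whether hemoglobin is in the total. By CPM, with hemoglobin in it, H2-T22 was at 124, 866 and 515 CPM in the low, middle and high stage of the null-labelled library and at 10.5, 8.01 and 3.9 CPM in the control-labelled library. H2-D1 was at 1298, 2830 and 1937 CPM, against 211, 89 and 39 CPM. Psmb10 was at 229, 264 and 195 CPM in the null-labelled library, against 26.6, 2.81 and 0.411 CPM. By contrast Psmb8 was at 182, 18.4 and 6.16 CPM in the null-labelled library, against 7.43, 2.38 and 0.616 CPM. Per 1000000 non-hemoglobin UMIs, Psmb10 was at 240.3, 461 and 1113 in the null-labelled library, against 28.1, 4.67 and 2.06, and Psmb8 at 191, 32.1 and 35, against 7.84, 3.95 and 3.09. Per null-labelled cell, Psmb10 had 5.1, 2.72 and 1.9 UMIs and Psmb8 4.06, 0.189 and 0.0599. Null-labelled Psmb8 was thus lower in the high than in the low stage on all 3 scales, whereas Psmb10 was higher on the non-hemoglobin scale and lower per cell. H2-K1 was at 621, 365 and 124 CPM in the null-labelled library, against 139, 21 and 6.57 CPM. On the non-hemoglobin scale it was nearly level in the null-labelled library, at 652, 636 and 708, against 147, 34.8 and 33. Tap1 was at 364, 304 and 67.2 CPM, against 15.5, 4.98 and 0.411 CPM. In the control-labelled high stage Tap1, Tap2, Psmb9 and Psmb10 had 2 UMIs each and Psmb8 3, so their ratios are loose: 164 (45 to 1356) for Tap1, 476 (131 to 3934) for Psmb10, 34.6 (9.27 to 290.1) for Psmb9, 12.5 (3.17 to 108) for Tap2 and 9.99 (3.16 to 50.7) for Psmb8.

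The difference was spread over cells. After thinning every cell to 1000 UMIs, which left out 14 null-labelled and 36 control-labelled erythroid-like cells, 85.8% of null-labelled cells (819 of 955; Clopper-Pearson 83.4 to 87.9%) and 27.1% of control-labelled cells (539 of 1986; 25.2 to 29.2%) held a UMI of at least 1 of the 10 genes. Without thinning the shares were 97% and 64.3%. The median thinned cell held 5 UMIs in the null-labelled library and 0 in the control-labelled library. By stage the thinned shares were 96.8%, 99.2% and 78.2% in the null-labelled library, against 50.5%, 36.7% and 9.47% in the control-labelled library. No class was held to lack these genes, so a background share was not measured; the lowest share, 9.47%, includes what free RNA gave. Before thinning the high stage had a median of 9857 UMIs per null-labelled cell and 4986.5 per control-labelled cell.

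**Figure D3:**
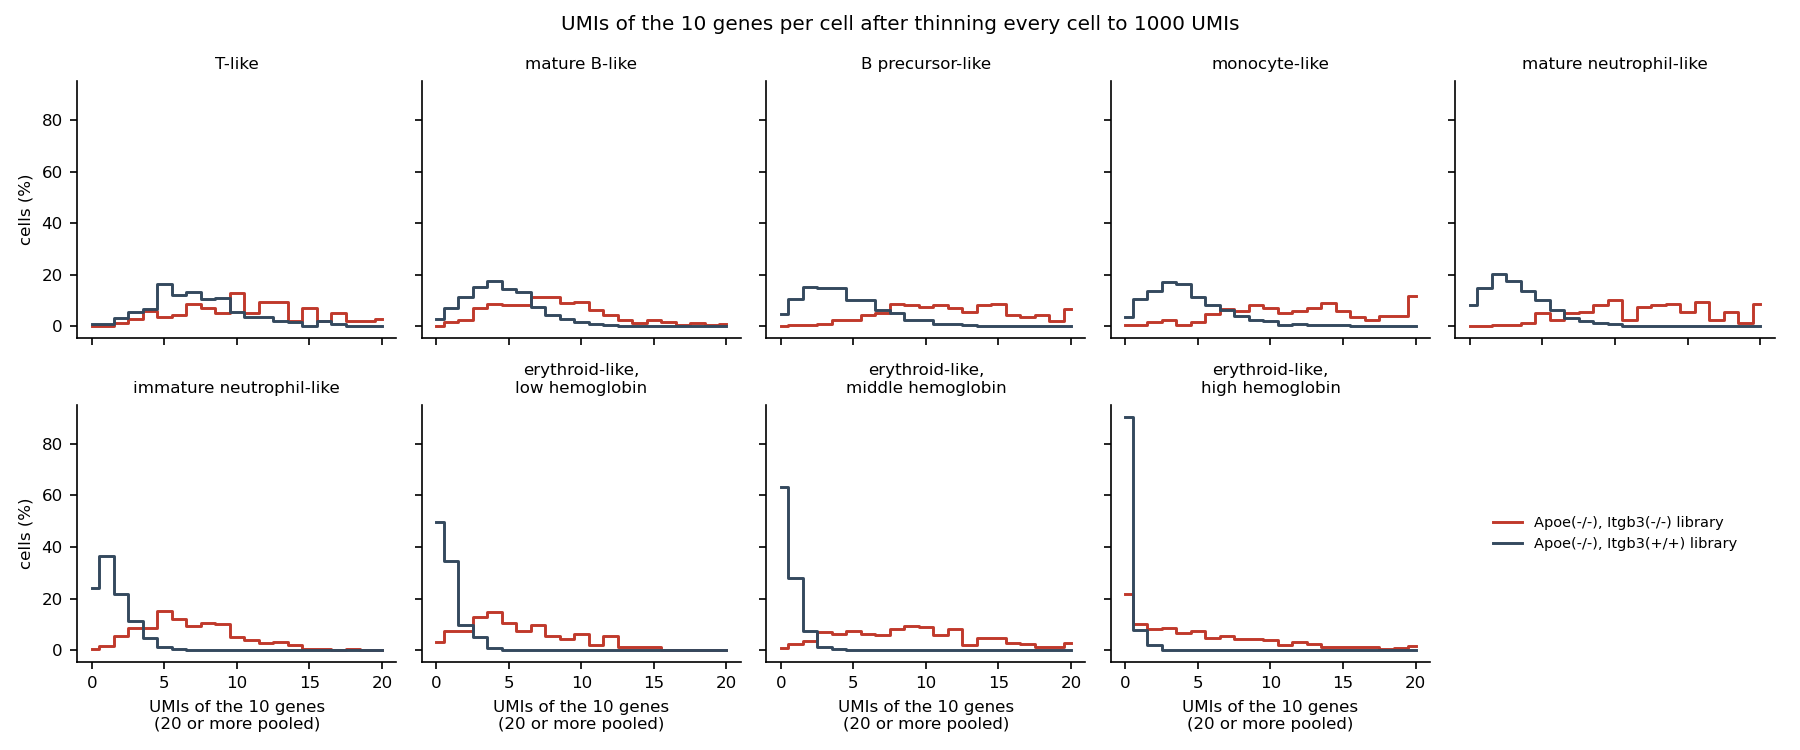
Distribution of UMIs of the 10 genes per cell (x axis) after thinning every cell to 1000 UMIs, as a share of cells (y axis, %), for 6 classes and 3 erythroid stages, null-labelled library in red and control-labelled library in dark; 20 or more UMIs are pooled. In the middle and high stage the null-labelled medians are 9 and 4 UMIs, and the control-labelled medians are 0.

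Immature neutrophil-like cells (462 null-labelled, 1189 control-labelled) and mature neutrophil-like cells (164 and 1685) followed. The largest null-labelled sub-cluster of the immature class (181 cells) was led by Ifitm6, Mmp9, Lrg1, Ltf and Retnlg, of which Mmp9 and Retnlg were also among the leading genes of a mature neutrophil-like sub-cluster, and under 5 other clusterings or cell filters the class held 253 to 341 null-labelled cells. In immature cells the 10 genes summed to 6292 CPM and 1361 CPM (4.62-fold, 4.54 to 4.71), and all 10 were called higher, against 11.3% of all genes. Without that sub-cluster, a choice made after seeing the data, the ratio was 4.33 (4.25 to 4.42) and all 10 were still called. The largest ratios there were those of Tap1 (386 CPM and 22.6 CPM; 17.1-fold, 14.9 to 19.6) and Psmb10 (330.2 CPM and 20.4 CPM; 16.2-fold, 14.1 to 18.8). In mature cells the sum was 11584 CPM and 2844 CPM (4.07-fold, 3.98 to 4.17), and all 10 were called, against 24.8% of all genes. Psmb10 led with 479.6 CPM and 15.7 CPM (30.5-fold, 24.1 to 39), and H2-D1 came last with 3447 CPM and 1585 CPM (2.17-fold, 2.09 to 2.26). TMM factors moved mature neutrophil-like log2 ratios by -0.41, which left 9 called, without H2-D1; its lowest log2 ratio over 11 alternatives was 0.71. The defining markers of mature neutrophils differed too, at 13716 CPM in the null-labelled library and 53336 CPM in the control-labelled library over 9 of 9 detected markers, and the part of maturity in these ratios was not tested.

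Monocyte-like cells (168 and 575) had 10696 CPM and 3790 CPM of the 10 genes (2.82-fold, 2.77 to 2.87). Of the 10, 9 were called higher, against 14.9% of all genes, and Psmb9 was the exception at 305 CPM and 171 CPM (1.78-fold, 1.63 to 1.95). H2-D1, at 2359 CPM and 1158 CPM, went under 2-fold in 4 of 11 alternatives, down to a log2 ratio of 0.91. The class held unlike cells: a null-labelled sub-cluster of 41 cells was led by class II genes (H2-Eb1, H2-Aa) and by Ccl22 and Ccr7, which mark activated dendritic cells, while a control-labelled sub-cluster of 39 cells with dendritic genes stayed unnamed. Without the 41 cells, a choice made after seeing the data, 7 genes were called, as H2-D1 (1.92-fold) and Psmb8 (1.84-fold) were not, and the ratio of the 10 genes was 2.73 (2.68 to 2.78). B precursor-like cells (307 and 731) had 10797 CPM and 3243 CPM (3.33-fold, 3.26 to 3.4). A control-labelled sub-cluster led by Iglc1, Iglc3, Atp1b1, Rag1 and Iglc2 stayed unnamed, though Rag1 is a B precursor marker. With the 10 genes and the interferon genes allowed as variable genes the class held 286 and 1119 cells. Without a mitochondrial limit it held 328 and 1158. The part of such cells in the ratios was not tested. There 9 of the 10 were called, against 11.1%; Tap1 led at 672 CPM and 70.2 CPM (9.57-fold, 8.47 to 10.8), and Psmb8 was not called at 509 CPM and 301 CPM (1.69-fold, 1.56 to 1.83). Psmb10, at 287 CPM and 140.2 CPM, went under 2-fold in 3 of 11 alternatives, down to a log2 ratio of 0.88. Both of the settings with more control-labelled B precursor-like cells were among these. In monocyte-like and B precursor-like cells, as over all cells, the transport and loading genes Tap1 and Tapbp, together with H2-T22, stood furthest apart.

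Mature B-like and T-like cells had the smallest ratios. Mature B-like cells (384 and 815) had 7894 CPM and 4284 CPM of the 10 genes (1.84-fold, 1.8 to 1.89). Only Tap1 (5.34-fold, 4.67 to 6.13), H2-T22 (3.66-fold, 3.03 to 4.43) and Tapbp (3.5-fold, 3.1 to 3.96) were called, against 13.4% of all genes, and the count was 5 with TMM factors and 5 with doublets kept. All 8 mature B markers were detected in both, at 1105 CPM in the null-labelled library and 5907 CPM in the control-labelled library, and B precursor markers at 1025 CPM and 3468 CPM; their part in the ratios was not tested. T-like cells (146 and 199) had 9821 CPM and 6662 CPM (1.47-fold, 1.43 to 1.52). The same 3 genes were called there, against 10.5% of all genes: Tapbp at 411 CPM and 143 CPM (2.87-fold, 2.33 to 3.57), Tap1 at 287 CPM and 126 CPM (2.27-fold, 1.81 to 2.88) and H2-T22 at 267 CPM and 127 CPM (2.09-fold, 1.66 to 2.66). For H2-T22 and Tap1 the interval reached below 2, and with hemoglobin left out of the total H2-T22 was at a log2 ratio of 0.99 and not called. Tap2, Psmb8, Psmb9 and Psmb10 had intervals that included 1 in T-like cells. NK markers stood at 914 CPM and 349 CPM within the T-like class, and their part was not tested.

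**Figure D4:**
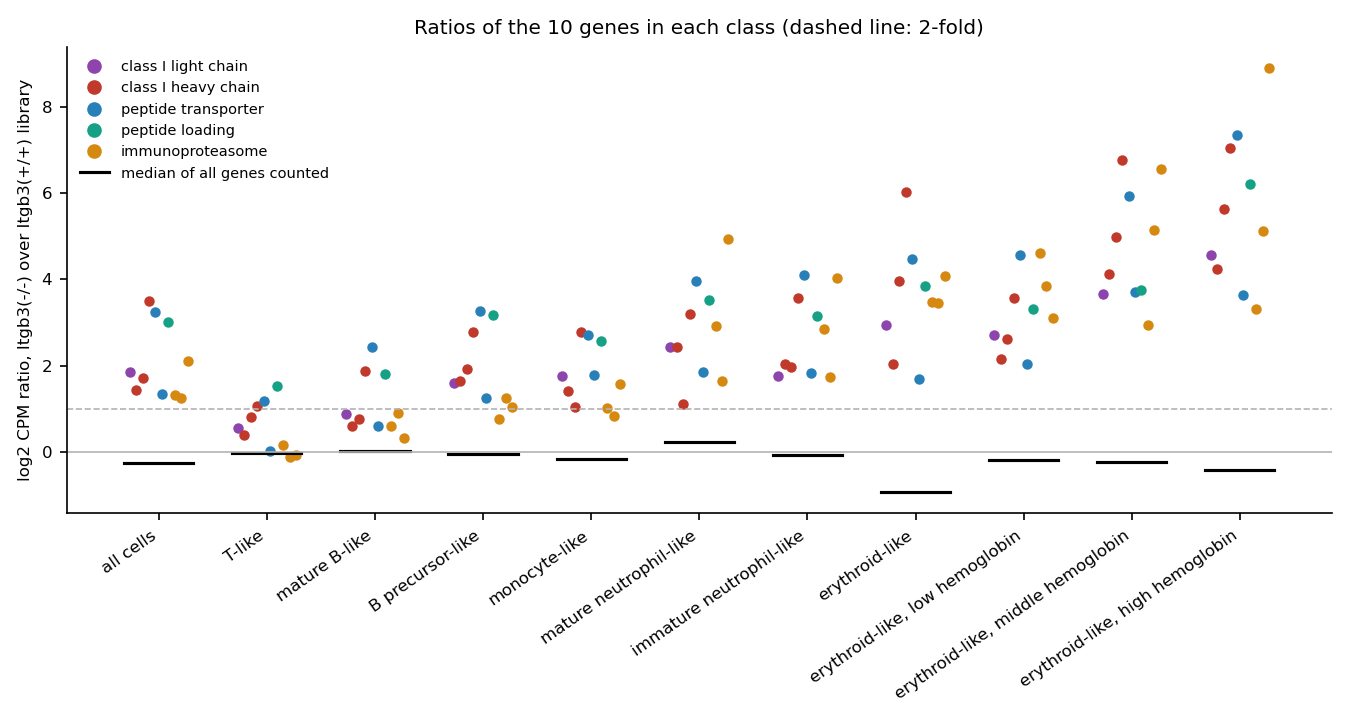
Log2 CPM ratio, null-labelled over control-labelled library, of each of the 10 genes in each class and erythroid stage; points are coloured by role, the dashed line marks 2-fold and black bars the median of all genes past the minimum. Ratios reach 6.02 for H2-T22 in erythroid-like cells and lie between -0.12 and 1.52 in T-like cells.

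The order of classes by level also differed between the libraries. Over the 8 classes with 50 or more cells in both, the summed level of the 10 genes spanned 1.96-fold in the null-labelled library, with mature neutrophil-like cells at the top (11584 CPM; 11381 to 11790) and erythroid-like cells at the bottom (5912 CPM; 5866 to 5958). In the control-labelled library it spanned 12.5-fold, with T-like cells at the top (6662 CPM; 6480 to 6848) and erythroid-like cells at the bottom (534 CPM; 524 to 545). Between these, the null-labelled order ran B precursor-like, monocyte-like, T-like, mature B-like, immature neutrophil-like and granulocyte-monocyte progenitor-like. Its neighbours B precursor-like and monocyte-like did not differ beyond their intervals, nor did granulocyte-monocyte progenitor-like and erythroid-like. The control-labelled order ran mature B-like, monocyte-like, B precursor-like, mature neutrophil-like, granulocyte-monocyte progenitor-like and immature neutrophil-like, all with separate intervals. For H2-T22, erythroid-like cells came first of the 8 classes in the null-labelled library (519 CPM; 506 to 533) and last in the control-labelled library (8.03 CPM; 6.76 to 9.47). Psmb8 stayed lowest in erythroid-like cells in both libraries, with a span over classes of 19.3-fold in the null-labelled library and 117-fold in the control-labelled library.

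The balance between immunoproteasome and constitutive catalytic genes was read as the share of Psmb8, Psmb9 and Psmb10 among the UMIs of all 6 catalytic subunit genes, a measure within a library that does not depend on its scaling. In erythroid-like cells this share was 73.3% (72 to 74.5%) in the null-labelled library and 5.58% (5.08 to 6.11%) in the control-labelled library. By stage it was 59.3%, 77.3% and 93.9% in the null-labelled library, against 6.34%, 2.87% and 2.75% in the control-labelled library. In immature neutrophil-like cells it was 79.3% and 39.8%, in mature neutrophil-like cells 85.2% and 61.6%, in monocyte-like cells 69.7% and 55.9%, and in B precursor-like cells 69.2% and 48%. In mature B-like cells the share was nearly the same, 64% (62.4 to 65.5%) and 64.2% (62.2 to 66.2%). In T-like cells it ran the other way, at 64.7% (62.2 to 67.1%) and 69.9% (66.7 to 72.9%), with overlapping intervals. Here Psmb10 of the Psmb10 and Psmb7 UMIs was at 60.1% in null-labelled T-like cells and 77.1% in control-labelled ones, Psmb9 of the Psmb9 and Psmb6 UMIs at 41.1% and 53.8%, and Psmb8 of the Psmb8 and Psmb5 UMIs at 77.4% and 73.9%. The level of Psmb10 itself was 174 CPM and 181 CPM in T-like cells. Psmb7 had 133 UMIs and 41 UMIs there and was called higher in null-labelled cells, against 10.5% of all genes. In NK-like cells, too few to be compared here, the share of the 3 genes among all 6 was 55.4% in the null-labelled library and 66.4% in the control-labelled library.

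**Figure D5:**
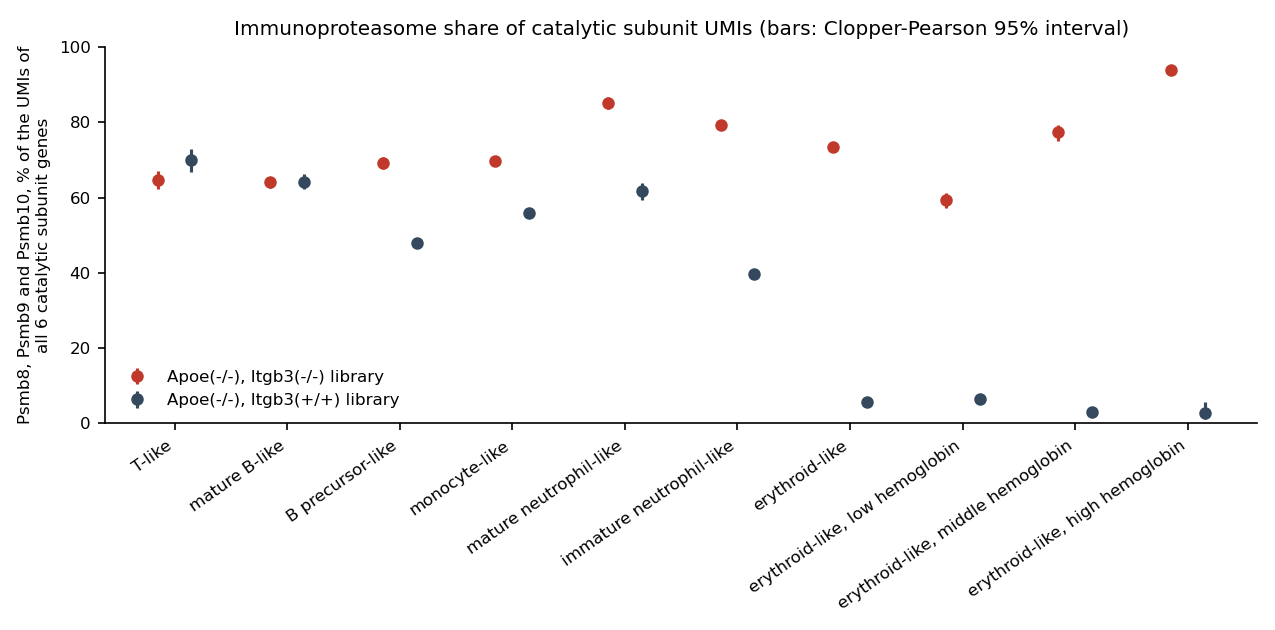
Share (%) of Psmb8, Psmb9 and Psmb10 among the UMIs of the 6 catalytic proteasome subunit genes in each class and erythroid stage, null-labelled library in red at the left and control-labelled library in dark at the right; bars are Clopper-Pearson 95% intervals. The shares are 73.3% and 5.58% in erythroid-like cells and 64% and 64.2% in mature B-like cells.

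Other genes of the pathway were read from lists over all cells, where 7.81% of all genes were called higher. Of 16 further heavy chain and class I-like genes, 13 were among the features and 4 passed the minimum, and all 4 were called higher: H2-Q4, H2-T23, H2-Q7 with the smallest ratio (187 CPM and 42.8 CPM; 4.38-fold) and H2-Q6 with the largest (141 CPM and 15 CPM; 9.42-fold). Of the 3 constitutive catalytic subunits none was called over all cells. Psmb6 had 157 CPM and 151 CPM, and Psmb5 157 CPM and 190.4 CPM. By class, Psmb7 was called higher in T-like cells, and Psmb6 and Psmb7 in mature neutrophil-like cells. The shares of all genes called higher there were 10.5% and 24.8%, and the TMM shift in mature neutrophil-like cells was -0.41. In pooled erythroid-like cells Psmb5, Psmb6 and Psmb7 were all called lower, with a median log2 ratio of -1.55. There 1042 of 2217 genes were called lower, and the TMM shift was 0.87. Of the loading chaperones and trimming enzymes none of the 4 past the minimum was called over all cells. Lnpep, a peptidase, stood at 104 CPM and 61.3 CPM, and Calr, the chaperone calreticulin, at 219 CPM and 394 CPM. By class, Tapbpl and Lnpep were called higher in B precursor-like and monocyte-like cells, where 11.1% and 14.9% of all genes were. Pdia3 and Tapbpl were called higher in mature neutrophil-like cells (24.8% of all genes) and Lnpep in mature B-like cells (13.4%). Calr, Canx and Pdia3 were called lower in pooled erythroid-like cells. Of 4 proteasome activator and assembly genes, Psme1 and Psme2, which encode the interferon-induced activator PA28, were called higher, Psme2 at 379 CPM and 132 CPM (2.88-fold), while Psme3 stood at 77.8 CPM and 99.3 CPM.

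Among the transcription factor genes, Nlrc5, the class I transactivator, was called higher at 57.1 CPM in null-labelled cells and 5.3 CPM in control-labelled cells (10.8-fold, 9.55 to 12.2). Irf1, an interferon-induced activator, was called higher at 156 CPM and 19.2 CPM (8.15-fold, 7.64 to 8.7). Irf2, a factor that binds the same sites as Irf1, had a summed level of 48.9 CPM and 75.5 CPM. It was called lower in T-like cells (26.1 CPM and 114 CPM; 4.37-fold lower, 2.86 to 6.86), in mature B-like cells (66.2 CPM and 208 CPM; 3.14-fold lower) and in mature neutrophil-like cells (69.3 CPM and 156 CPM; 2.26-fold lower), where 12.4%, 15.8% and 13.6% of all genes were called lower. The 20 interferon response genes had been kept out of the clustering. Of these, 19 were called higher over all cells, against 7.81% of all genes. The largest ratio was that of Cxcl10, a chemokine, at 735 CPM and 2.54 CPM (289-fold, 246 to 342). Ifi27l2a was not called, at 303 CPM and 184 CPM (1.65-fold). Against the direction of its list, H2-Q10 was lower in null-labelled mature neutrophil-like cells, at 36.5 CPM and 216 CPM (5.92-fold lower, 4.3 to 8.37).

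In the erythroid stages some constitutive subunits were called lower: 1 of 3 in the low stage and 2 of 3 in the middle stage, while none of the 3 passed the minimum in the high stage. Psmb5 was at 127 CPM and 272 CPM in the low stage (2.15-fold lower, 1.9 to 2.44), where 12.6% of all genes were called lower. In the middle stage Psmb5 (17.3 CPM and 89.6 CPM; 5.18-fold lower, 3.82 to 7.16) and Psmb6 (38.7 CPM and 93.5 CPM; 2.42-fold lower) were called, as were the chaperones Calr (3.14-fold lower) and Canx, calnexin (3.21-fold lower). The share of all genes called lower there was 26.8%. In the high stage Psme3, the gene of the nuclear proteasome activator PA28 gamma, was called lower (152 CPM and 309.9 CPM; 2.04-fold lower, 1.88 to 2.22), against 28.8% of all genes. TMM factors shift log2 ratios by 0.03, 0.46 and 0.59 in the low, middle and high stage, and Psmb6 in the middle stage and Psme3 in the high stage would then not be called.

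Across classes, the mean log2 level of the 10 genes was compared with that of each of 2109 other genes within each library, over 8 classes in the null-labelled library and 12 in the control-labelled library. The 5 most alike were Eif4g3 (Pearson r 0.89 in the null-labelled and 0.90 in the control-labelled library; the others in the same order), Chic2 (0.87 and 0.88), Pik3cd (0.87 and 0.88), Lrp10 (0.92 and 0.86) and Epsti1 (0.88 and 0.85). The classes of a library share its depth and its free RNA, so these values are descriptions. Within the set, each gene's r with the mean was between 0.71 (Tapbp) and 0.98 (Tap1) in the control-labelled library. Each of the 10 genes is itself part of this mean, so its r is in part built in and not comparable with that of other genes. In the null-labelled library Tap1 was again highest at 0.88, while H2-T22 stood at -0.05 and Tapbp at 0.32.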

How the data were processed

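The authors deposited 1 filtered feature-barcode matrix of raw UMI counts per library; the counts are not normalized. Per the submitters' processing notes, Cell Ranger 3.0, Seurat and the build mm10 were used, and the file headers name software version 3.1.0. The chemistry reads the 3′ end, so splice forms are not resolved. From the 4281 null-labelled and 12764 control-labelled barcodes, 30.5% and 27.3% were removed for fewer than 200 genes or a mitochondrial share above 10%, then scored doublets (Scrublet at 0.8% per 1000 cells: 2.39% and 7.43%). Cells of both libraries were clustered together in scanpy 1.11.5 (Leiden, 2000 variable genes, 30 components, no integration), leaving the 10 genes, their pathway lists and 20 interferon genes out of the variable genes. Classes were named from marker lists; the rule for 4 sub-clusters with no leading list was set after seeing the data, and a difference between libraries may come from these names. UMIs were summed per library and class, with exact Poisson intervals for CPM, exact conditional intervals for ratios and a floor of 3 UMIs. Classes under 100 cells in either library were not compared. TMM factors came from edgeR 4.0.16 in R 4.3.3; intervals used scipy 1.17.1. The ratio and call code was tested on simulated data. The 10 genes, the lists and the rule for named genes (all 10 genes; the highest and lowest of each list, and any list gene called opposite to its list's median; the 5 most alike genes) were chosen with earlier results of these data known. Psmb7 and the chaperones, trimming enzymes and subunits named in single stages or classes were chosen after their values were seen. Counting error, 1 library per genotype and unknown animal numbers limit every comparison to these 2 libraries. 1 gene of the transcription factor list is not reported here.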

Additional observations from a re-analysis of the deposited data

Results flagged for a closer look

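In NK-like cells (38 null-labelled, 81 control-labelled), Psmb10 stood below the control-labelled library, at 131 CPM (46 UMIs) and 224 CPM (77 UMIs), a ratio of 0.584 (0.396 to 0.853). In 14 other groupings of at least 20 cells per library (classes, stages and all cells), the interval of its ratio lay wholly above 1. In T-like cells (174 CPM and 181 CPM; 0.961, 0.77 to 1.2) and plasmacytoid dendritic-like cells (231 CPM and 210.2 CPM; 1.1, 0.753 to 1.59) it included 1. This difference between classes was not tested, and the NK-like class is under the 100 cells set for comparison. It also compares unlike sub-clusters. The null-labelled one was led by Gzma, Il2rb, Trbc1, Nkg7 and Ctla2a, and the control-labelled one by Gzma, Ccl5, AW112010, Klre1 and Il2rb. The 10 genes together were at 11073 CPM and 7685 CPM in NK-like cells (1.44-fold, 1.37 to 1.51).

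Barcodes with under 200 genes were left out of the comparisons, and a part of them was taken as red cell barcodes. In this part hemoglobin made up 95.8% of UMIs in the null-labelled library (1101 barcodes) and 93.2% in the control-labelled library (3108 barcodes). As the barcodes were picked as red cells, this share describes the choice and is not a result. The 10 genes were counted there at 110.1 CPM (104 to 117; 1050 UMIs) and 31.2 CPM (28.2 to 34.6; 375 UMIs). Per 1000000 non-hemoglobin UMIs this was 2641 and 460.2. The part of free RNA in these barcodes was not tested.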

How the results depend on the processing

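All alternatives were planned except leaving out a sub-cluster in the monocyte-like and the immature neutrophil-like class, which was chosen after seeing the data. Of 1220 values under the planned ones (each gene's log2 ratio in each class or stage under each alternative), 1214 kept their direction; the 6 exceptions were in T-like cells. All 1051 values of called genes kept theirs. Part of this agreement was fixed in advance. A call fold of 1.5 changes no ratio, and over all cells a new clustering leaves the sums as they were. The fold of 1.5 is also among the 11 alternatives counted for single genes. The count of genes called higher in mature B-like cells, 3 as reported, was 5 with TMM factors, 5 with doublets kept and 9 at a fold of 1.5; more was called at 1.5 because the threshold was lower, and for the others the cause was not tested. The counts in the other classes and stages stayed within 1.5 times; in the monocyte-like class the lowest was 7 of the 9, without the sub-cluster of 41 cells. A mitochondrial limit of 5% left 1 null-labelled mature B-like cell and gave no value there. Leaving out a replicate was not possible with 1 library per genotype. No paired analysis was possible because each genotype had 1 library. Low UMI counts in control-labelled late erythroid-like cells limit the ratios there.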

Other observations

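Classes under 100 cells were not compared, but their summed levels of the 10 genes are given as values. Plasmacytoid dendritic-like cells (22 null-labelled, 61 control-labelled) had 13264 CPM and 6431 CPM (2.06-fold, 1.95 to 2.18), the highest null-labelled level of any named class with cells in both libraries. HSPC-like cells (33 and 84) had 11758 CPM and 3669 CPM (3.2-fold, 3.09 to 3.32). Granulocyte-monocyte progenitor-like cells (93 and 376) had 6002 CPM and 2154 CPM (2.79-fold, 2.73 to 2.84), macrophage-like cells (44 and 183) 9415 CPM and 1654 CPM (5.69-fold, 5.19 to 6.23), basophil or mast-like cells (22 and 45) 9124 CPM and 2914 CPM (3.13-fold, 2.83 to 3.46), and megakaryocyte-like cells (10 and 25) 10675 CPM and 2756 CPM (3.87-fold, 3.49 to 4.3). In the macrophage-like class hemoglobin made up 9.76% and 49.6% of UMIs, which lowers the control-labelled level.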
